A study of Homo sapiens with 8 samples.

Results

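The kinesin superfamily was described in 2 cell lines derived from human acute myeloid leukaemia, NOMO-1 and MOLM13, from 8 libraries of poly(A) RNA-seq. Members were the rows of the deposited expression table whose symbol is KIF, a number and at most 1 letter from A to C, or KIFC2 or KIFC3, which gave 41 of 26830 rows. They were read in 3 sets: 11 mitotic kinesins, 17 transport kinesins and 13 remaining members. KIFC1, which belongs to the mitotic set by name, was not analysed here. The libraries form 4 groups of 2: NOMO-1 cells with shALKBH5 (replicates 2 and 3), NOMO-1 cells with shNS (replicates 1 and 3), MOLM13 cells with shALKBH5 (replicates 1 and 3) and MOLM13 cells with shNS (replicates 1 and 3). shALKBH5 is a short hairpin RNA against ALKBH5, an enzyme that removes the m6A methyl mark from RNA, and shNS is the control hairpin. All groups share lentiviral transduction and puromycin selection, and the knockdown rests on 1 hairpin, hairpin 1 in the labels. The labels differ on the treatment: the design text gives 4 days of puromycin, whereas the sample protocols give 1 week, name FTO as the target of the virus and mention drugs that appear in no sample label.

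Kinesins are motor proteins that use ATP to walk along microtubules or to take them apart. Mitotic kinesins build the spindle, move and align chromosomes and run cytokinesis, and their transcripts accumulate in cells that approach division. Transport kinesins carry vesicles, organelles and protein complexes in dividing and resting cells alike, most of them toward microtubule plus ends, whereas the C-type kinesins KIFC2 and KIFC3 have a motor at the other end of the protein and KIFC3 walks toward minus ends.

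Levels are given in TPM, a measure of relative transcript abundance that is scaled by transcript length, so that levels of different kinesins can be set side by side. Read depth cannot be recovered from TPM, so values stand without counting intervals. A gene was tested when it had at least 1 TPM in at least 2 libraries, which held for 14302 genes and for 32 of the 41 kinesins: 11 mitotic, 14 transport and 7 remaining. Of the other 9, KIF12, KIF19, KIF25 and KIF2B were listed at 0 in every library, and KIF1A, KIF5A, KIF6, KIF13A and KIF26A stayed under 1 TPM in every library, with a highest value of 0.69 TPM for KIF13A. KIF4B passed only through the NOMO-1 shNS libraries, where it was highest, so that it had to differ there. KIF17 passed only through the NOMO-1 shALKBH5 and MOLM13 shNS libraries, so that the filter favoured opposite directions in the lines. Changes are differences of mean log2(TPM + 1), with the standard error (SE) and the two-sided limma p-value adjusted over all genes tested (threshold 0.05, n = 2 libraries a group). This scale understates the change of low genes.

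ALKBH5 itself was at 15.1 and 14.2 TPM in NOMO-1 shALKBH5 libraries, against 70.4 and 71.8 TPM in NOMO-1 shNS libraries, and at 9.45 and 7.35 TPM in MOLM13 shALKBH5 libraries, against 45.7 and 45.8 TPM in MOLM13 shNS libraries. The labels do not state whether libraries within a group are separate cultures, so every p-value reflects the spread among these libraries alone, and that spread may be technical. Each of 8 myeloid marker genes was detected in at least part of the libraries, among them CD33, while MPO and CD14 were under 1 TPM in NOMO-1 libraries. The lymphoid, erythroid, megakaryocyte, epithelial and fibroblast marker lists summed to at most 4.06 TPM in any library, apart from 14.1 TPM of erythroid genes in MOLM13 shALKBH5 replicate 3, where HBB alone was listed at 14.03 TPM. MS4A1, HBA1, PF4, EPCAM and KRT19 were listed at 0 in every library. The median absolute log2 difference between the 2 libraries of a group over the tested kinesins was 0.19 in NOMO-1 shALKBH5, 0.04 in NOMO-1 shNS, 0.19 in MOLM13 shALKBH5 and 0.08 in MOLM13 shNS. In the MOLM13 shALKBH5 group it was 0.35 over all genes tested.

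Knockdown in NOMO-1 lowered the transcripts of all 11 mitotic kinesins measured. Their group means were 2.79 times (KIF22) to 11.3 times (KIF14) lower than in the shNS libraries, the median log2 change was -2.07. The groups did not overlap for any of the 11, which, in the lower direction, held for 30.5% of all genes tested (82.6% in either direction). Of all genes tested, 15.0% were called lower in this comparison, and the median log2 change of all genes was 0.16. The 11 calls held with median-of-ratios scaling and with quantile normalization in both lines, and without any single library. In bulk RNA, fewer dividing cells and less of these transcripts per cell cannot be told apart. Genes of proliferation moved with this result: 6 of 6 (MKI67, PCNA, TOP2A, MCM2, CCNB1 and CDK1) were called lower, and their summed level was 655 and 845 TPM in shALKBH5 libraries, against 2474 and 2497 TPM in shNS libraries. The part of cell cycle composition in the kinesin result was not tested.

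The motors that build the spindle were among these. KIF11 (Eg5), which slides antiparallel microtubules to separate the spindle poles, was at 25.5 and 34.3 TPM in NOMO-1 shALKBH5 libraries, against 98.5 and 103 TPM in shNS libraries. Its log2 change was -1.73 (SE 0.27, adjusted p = 0.0035). KIF15, which can sustain the bipolar spindle when KIF11 is blocked, was at 8.49 and 13.2 TPM in shALKBH5 libraries, against 69.8 and 73.3 TPM in shNS libraries (log2 change -2.64, SE 0.19, adjusted p = 0.00038). Both shALKBH5 libraries were well below both shNS libraries for these motors, and replicate 2 was the lower of the pair. KIF2C (MCAK), which takes microtubules apart at centromeres, was the most abundant kinesin of the NOMO-1 shNS libraries. It was at 27.2 and 36.1 TPM in shALKBH5 libraries, against 142 and 143 TPM in shNS libraries (log2 change -2.15, SE 0.17, adjusted p = 0.00044).

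Motors that act on chromosome arms and microtubule plus ends gave the same picture. The chromokinesin KIF4A, which also sets the length of the central spindle, was at 16.7 and 26.7 TPM in NOMO-1 shALKBH5 libraries, against 92.2 and 91.7 TPM in shNS libraries (log2 change -2.07, SE 0.20, adjusted p = 0.0008). The other chromokinesin, KIF22, was at 30.7 and 35.9 TPM in shALKBH5 libraries, against 92.7 and 93.3 TPM in shNS libraries (log2 change -1.46, SE 0.13, adjusted p = 0.00061). KIF22 had the smallest fall of the mitotic set in this line. KIF18A, which dampens the movements of aligned chromosomes, was at 3.17 and 4.66 TPM in shALKBH5 libraries, against 18.1 and 20.7 TPM in shNS libraries (log2 change -2.07, SE 0.18, adjusted p = 0.00055). Its relative KIF18B, which shortens astral microtubules, was at 5.69 and 6.25 TPM in shALKBH5 libraries, against 36.4 and 35.6 TPM in shNS libraries (log2 change -2.41, SE 0.11, adjusted p = 0.00024). KIF18B had the largest fall of these 4 motors.

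The cytokinesis motors completed the set. KIF14, which binds citron kinase and PRC1 at the midbody, was at 5.19 and 7.40 TPM in NOMO-1 shALKBH5 libraries, against 72.1 and 69.6 TPM in shNS libraries. Its log2 change of -3.32 (SE 0.22, adjusted p = 0.00034) was the largest among the kinesins in this line. KIF20A (MKLP2), which brings the chromosomal passenger complex to the central spindle, was at 7.27 and 12.2 TPM in shALKBH5 libraries, against 54.1 and 55.5 TPM in shNS libraries (log2 change -2.42, SE 0.23, adjusted p = 0.00071). Its relative KIF20B (MPHOSPH1) was at 15.1 and 20.9 TPM in shALKBH5 libraries, against 57.0 and 56.5 TPM in shNS libraries (log2 change -1.62, SE 0.25, adjusted p = 0.0034). Of this pair KIF20A fell further: its level relative to KIF20B was 0.483 and 0.581 in shALKBH5 libraries, against 0.949 and 0.981 in shNS libraries. KIF23 (MKLP1), which forms the centralspindlin complex with RACGAP1, was at 24.1 and 34.9 TPM in shALKBH5 libraries, against 108 and 113 TPM in shNS libraries (log2 change -1.89, SE 0.19, adjusted p = 0.00089).

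**Figure D1:**
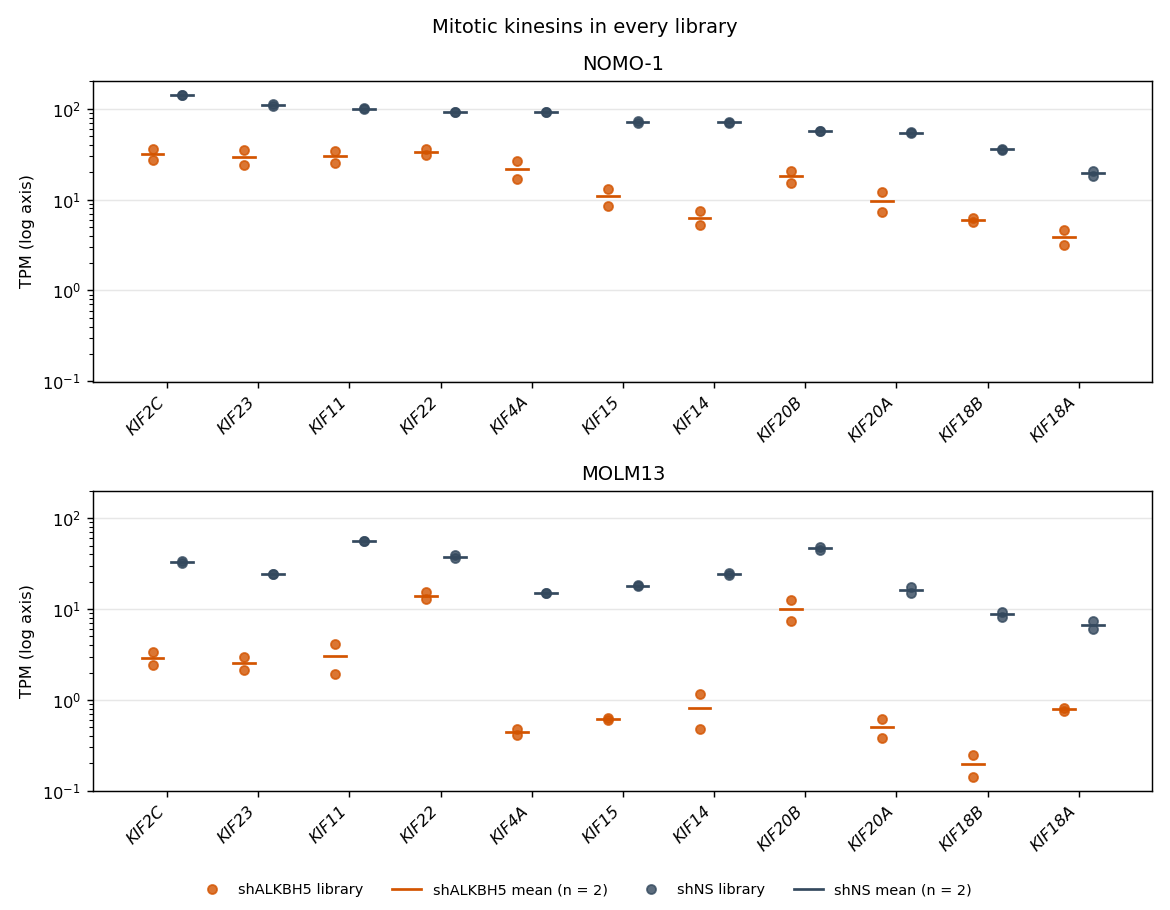
TPM of the 11 mitotic kinesins in each library on a log axis, with shALKBH5 libraries left of shNS libraries within each line. In both lines every shALKBH5 point lies below every shNS point of the same gene, from KIF14 at 5.19 and 7.40 TPM against 72.1 and 69.6 TPM in NOMO-1 to KIF18B at 0.25 and 0.14 TPM against 8.27 and 9.23 TPM in MOLM13.

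In MOLM13, knockdown also lowered all 11 mitotic kinesins measured, with a median log2 change of -3.14. Group means were 2.68 times (KIF22) to 44.9 times (KIF18B) lower than in the shNS libraries. The groups did not overlap for any of the 11, against 46.2% of all genes tested in the lower direction and 67.5% in either. In this comparison 31.2% of all genes tested were called lower, and the median log2 change of all genes was -0.18. Taken separately against the shNS mean, the median log2 difference over the mitotic set was -2.98 in shALKBH5 replicate 1 and -3.30 in replicate 3, while that over all genes was -0.06 and -0.33 in these libraries. The 6 proliferation genes were called lower here too, with summed levels of 175 and 122 TPM in shALKBH5 libraries, against 754 and 765 TPM in shNS libraries. Structural RNAs such as RN7SK, which carry no poly(A) tail, were higher in this group: the 7 listed summed to 4536 and 9262 TPM in shALKBH5 libraries, against 222 and 520 TPM in shNS libraries. The part of either in the kinesin result was not tested.

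Several mitotic kinesins came close to the lower end of detection in MOLM13 shALKBH5 libraries. KIF18B was at 0.25 and 0.14 TPM in shALKBH5 libraries, against 8.27 and 9.23 TPM in shNS libraries (log2 change -3.03, SE 0.11, adjusted p = 0.00011). KIF4A was at 0.41 and 0.48 TPM in shALKBH5 libraries, against 15.0 and 15.0 TPM in shNS libraries (log2 change -3.47, SE 0.20, adjusted p = 0.00022). KIF20A was at 0.62 and 0.38 TPM in shALKBH5 libraries, against 15.2 and 17.5 TPM in shNS libraries (log2 change -3.53, SE 0.23, adjusted p = 0.00026). All of these stood under 1 TPM in both shALKBH5 libraries. KIF15 was at 0.60 and 0.63 TPM in shALKBH5 libraries, against 18.3 and 18.1 TPM in shNS libraries (log2 change -3.57, SE 0.19, adjusted p = 0.00019). KIF18A was at 0.82 and 0.76 TPM in shALKBH5 libraries, against 7.34 and 6.09 TPM in shNS libraries (log2 change -2.10, SE 0.18, adjusted p = 0.00054). At levels under 1 TPM the log2(TPM + 1) scale compresses the change, and KIF18B, whose group means differed 44.9 times, had a smaller log2 change than KIF11.

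The more abundant mitotic motors of MOLM13 fell by amounts that ranged widely. KIF11 was at 4.11 and 1.92 TPM in MOLM13 shALKBH5 libraries, against 55.7 and 55.7 TPM in shNS libraries. Its log2 change of -3.87 (SE 0.27, adjusted p = 0.0003) was the largest among the kinesins in this line on the log2(TPM + 1) scale, whereas by group means KIF11 was 18.5 times and KIF18B 44.9 times lower. KIF14 was at 1.15 and 0.48 TPM in shALKBH5 libraries, against 24.9 and 23.7 TPM in shNS libraries (log2 change -3.82, SE 0.22, adjusted p = 0.00021). By group means KIF14 was 29.8 times lower. For KIF11 and KIF14 alike, replicate 3 was the lower of the shALKBH5 libraries. KIF2C was at 3.33 and 2.45 TPM in shALKBH5 libraries, against 33.6 and 32.5 TPM in shNS libraries (log2 change -3.14, SE 0.17, adjusted p = 0.00019). KIF23 was at 2.96 and 2.15 TPM in shALKBH5 libraries, against 24.1 and 24.5 TPM in shNS libraries (log2 change -2.84, SE 0.19, adjusted p = 0.0003). KIF20B and KIF22 kept the most transcript. KIF20B was at 12.7 and 7.43 TPM in shALKBH5 libraries, against 48.8 and 44.9 TPM in shNS libraries (log2 change -2.15, SE 0.25, adjusted p = 0.0015). KIF22 was at 15.3 and 12.8 TPM in shALKBH5 libraries, against 36.1 and 39.2 TPM in shNS libraries (log2 change -1.36, SE 0.13, adjusted p = 0.00076).

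Across the 11 mitotic genes the log2 changes of the 2 lines had a Spearman correlation of 0.6 and a Pearson correlation of 0.63, given as a description over genes that share the libraries. KIF22 had the smallest fall in both. On the log2(TPM + 1) scale KIF14, KIF15 and KIF20A were among the 4 largest falls in both lines, but by group means KIF18B (44.9 times) and KIF4A (33.7 times) led in MOLM13 and KIF15 (29.6 times) came after KIF20A (32.6 times) and KIF14 (29.8 times). 16 of the 32 tested kinesins were called lower in both lines, against 10.4% of all genes tested. Reads of KIF20A, KIF4A and KIF18A can overlap exons of a gene on the opposite strand (132 bases of BRD8, 77 of PDZD11 and 61 of METTL15 at most), KIF22 shares 561 bases with AC009133.4, KIF23 231 with AC027237.3 and KIF2C 137 with AL592166.1. The strand setting of the counting is not given in the sources used here, so these values carry that uncertainty.

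The mitotic kinesins moved together, so their promoters were read. On GRCh38, GENCODE 29 places KIF14 (ENSG00000118193.11) at chr1:200551497-200620734 on the minus strand, KIF11 (ENSG00000138160.5) at chr10:92593286-92655395 on the plus strand, KIF5B (ENSG00000170759.10) at chr10:32009010-32056431 on the minus strand and KIF16B (ENSG00000089177.18) at chr20:16272104-16573434 on the minus strand. RefSeq promoters on GRCh38.p14, from 250 bases before to 50 bases after the gene start, matched 33 of the 41 kinesins, among them all 11 mitotic and 12 transport kinesins. Many genes expressed late in the cell cycle carry near their start the letters TTTGAA or TTCGAA, known as the cell cycle genes homology region, often close to a CCAAT box. Searched on both strands, with no overlapping matches among the kinesins, TTTGAA or TTCGAA was found in 9 of 11 mitotic promoters (81.8%), 1 of 12 transport promoters (8.33%) and 2 of 10 promoters of remaining members (20.0%), against 11.5% of the 10057 promoters of tested genes and 16.4% of all 35116 promoters. CCAAT was found in 9 of 11 mitotic promoters (81.8%) and 3 of 12 transport promoters (25.0%), against 36.6% of tested genes. Both stood together in 8 of 11 mitotic promoters (72.7%) and in 4.9% of tested genes. An E2F-type octamer (TTTCCCGC, TTTGGCGC or TTTCGCGC) was found in 1 mitotic promoter, that of KIF15, and in 4.51% of tested genes. KIF20A held 2 CCAAT boxes and no hexamer, and none of these letters was found in the KIF2C window. A match is a description of the letters and not a site shown to be used. The 30-base windows that hold the hexamer are shown for the 9 mitotic kinesins and for the 3 other kinesins that had it, on the strand of the gene, with the hexamer in capitals (TTCAAA is TTTGAA read on the other strand):
KIF11 (chr10:92593090-92593119, plus strand): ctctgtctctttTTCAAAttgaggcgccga
KIF14 (chr1:200620733-200620762, minus strand): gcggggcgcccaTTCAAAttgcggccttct
KIF15 (chr3:44761747-44761776, plus strand): ccaagcgccaaaTTCAAAtttgcggccatc
KIF18A (chr11:28108149-28108178, minus strand): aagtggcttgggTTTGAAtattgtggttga
KIF18B (chr17:44947754-44947783, minus strand): ccgcccggctaaTTTGAAcgcaaggcgccg
KIF20B (chr10:89701602-89701631, plus strand): tggccgccattgTTTGAATTTGAAaacggt
KIF22 (chr16:29790712-29790741, plus strand): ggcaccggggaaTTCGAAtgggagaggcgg
KIF23 (chr15:69414282-69414311, plus strand): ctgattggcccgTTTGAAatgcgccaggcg
KIF4A (chrX:70290058-70290087, plus strand): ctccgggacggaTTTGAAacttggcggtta
KIF4B (chr5:155013746-155013775, plus strand): ctctgggagggaTTTGAAacttggcggtta
KIF24 (chr9:34329250-34329279, minus strand): acagcgcgggcgTTCGAActggcgcttggc
KIF5B (chr10:32056548-32056577, minus strand): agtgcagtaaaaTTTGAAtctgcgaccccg

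In the 9 mitotic promoters the hexamer began between position -55 (KIF23) and position 31 (KIF20B, which holds it back to back), counted from the RefSeq start. These positions depend on the start used, since GENCODE 29 starts some genes elsewhere. It starts KIF11 at 92593286, beyond the end of the RefSeq window at 92593179. The hexamer of KIF5B began at position -140. KIF5B was among the 3 transport kinesins called lower in both lines, and the KIF3C window, another of these, held no hexamer. For KIF21B, the last of these, no RefSeq promoter was matched. Longer stretches, of 250 bases before the start, are shown for the mitotic kinesins with the largest fall on the log2(TPM + 1) scale in NOMO-1 (KIF14) and in MOLM13 (KIF11, although KIF18B fell further by group means), for the most abundant transport kinesin (KIF5B) and for the transport kinesin with the largest rise (KIF16B). Capitals mark the hexamer and CCAAT, or ATTGG on the other strand. The KIF14 hexamer lies after the start and so outside its stretch, and KIF16B held none of these letters:
KIF14 (chr1:200620752-200621001, minus strand): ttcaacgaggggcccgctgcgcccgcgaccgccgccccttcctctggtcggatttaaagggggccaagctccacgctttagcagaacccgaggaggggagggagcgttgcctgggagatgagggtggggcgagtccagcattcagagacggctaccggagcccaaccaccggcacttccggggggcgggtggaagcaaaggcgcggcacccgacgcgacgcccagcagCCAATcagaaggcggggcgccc
KIF11 (chr10:92592880-92593129, plus strand): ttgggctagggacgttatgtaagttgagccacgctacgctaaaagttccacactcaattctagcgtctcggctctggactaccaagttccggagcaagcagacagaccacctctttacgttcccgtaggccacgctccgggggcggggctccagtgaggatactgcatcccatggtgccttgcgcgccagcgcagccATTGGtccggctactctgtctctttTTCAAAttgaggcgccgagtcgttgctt
KIF5B (chr10:32056426-32056675, minus strand): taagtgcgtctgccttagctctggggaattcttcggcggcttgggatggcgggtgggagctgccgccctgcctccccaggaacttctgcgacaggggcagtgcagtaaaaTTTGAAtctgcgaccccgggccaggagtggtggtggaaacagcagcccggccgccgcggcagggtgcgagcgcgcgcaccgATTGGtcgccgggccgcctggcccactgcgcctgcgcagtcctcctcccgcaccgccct
KIF16B (chr20:16573449-16573698, minus strand): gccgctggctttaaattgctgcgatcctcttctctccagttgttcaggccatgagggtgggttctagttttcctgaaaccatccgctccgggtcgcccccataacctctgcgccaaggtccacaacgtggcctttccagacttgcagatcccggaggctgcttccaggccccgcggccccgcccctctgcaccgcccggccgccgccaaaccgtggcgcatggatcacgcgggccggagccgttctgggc

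**Figure D2:**
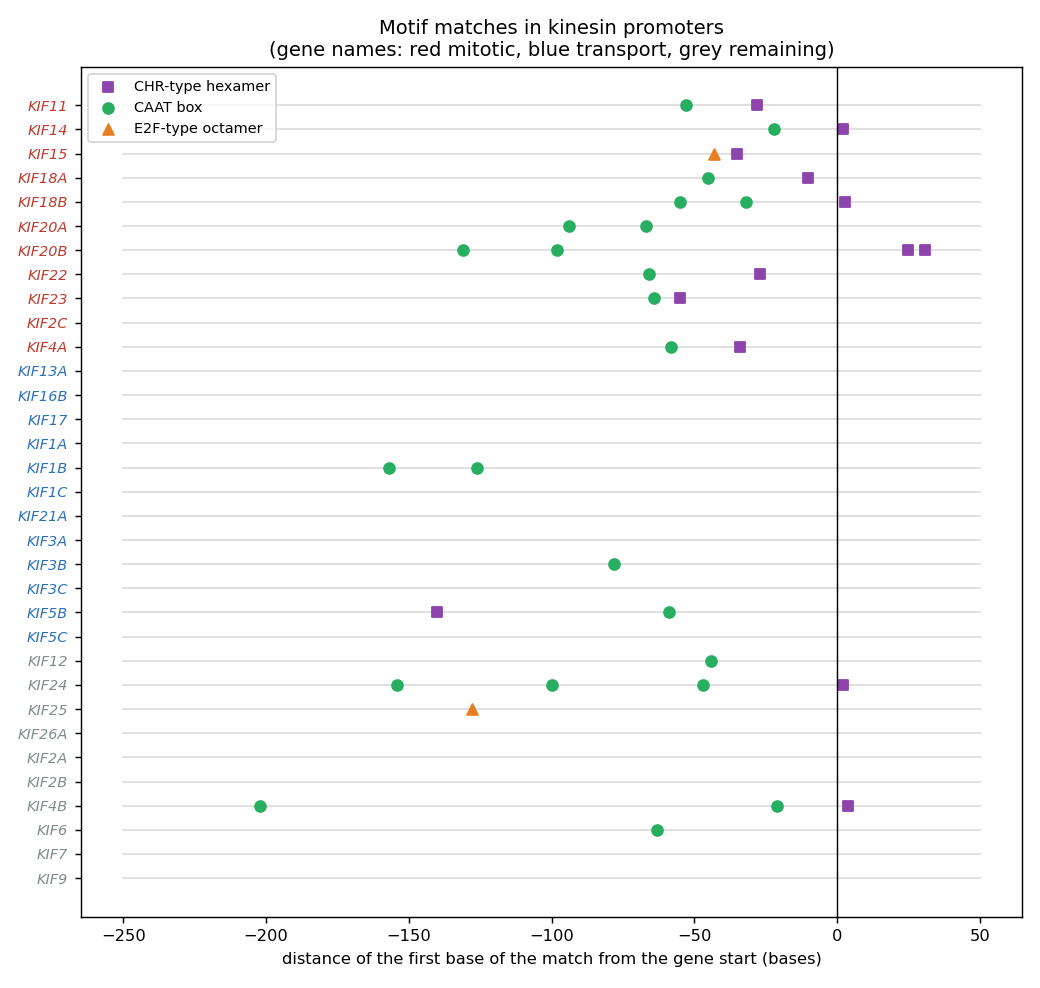
Positions of the hexamer and of CCAAT in the promoters of kinesins, in bases from the RefSeq start (x axis), 1 row a gene. The hexamer matches of the 9 mitotic kinesins lie between positions -55 and 31, and that of KIF5B lies at -140.

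The transport kinesins did not share a direction. In NOMO-1, 7 of the 14 tested were called higher and 3 lower, with a median log2 change of 0.45. Of all genes tested, 28.6% were called higher and 15.0% lower. The split depended on the scaling: with each library divided by a median-of-ratios factor, which brings the median change of all genes to 0, 4 transport kinesins were called higher and 4 lower, and with quantile normalization 3 and 4. The median-of-ratios factors were 1.30 and 1.34 in NOMO-1 shALKBH5 libraries and 1.13 and 1.14 in NOMO-1 shNS libraries, and under them the share of higher calls among all called genes was 47.7% in place of 65.6%. The count of higher transport kinesins was 3 without shALKBH5 replicate 3, without shNS replicate 1 or without shNS replicate 3 of this line, and the count of lower ones was 0 without shALKBH5 replicate 2 or shNS replicate 3, where 2 had an unadjusted limma p under 0.05, and 1 without shALKBH5 replicate 3 or shNS replicate 1.

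KIF16B, which carries early endosomes, was at 21.1 and 20.6 TPM in shALKBH5 libraries, against 8.21 and 8.59 TPM in shNS libraries. Its rise of 1.22 (log2, SE 0.10, adjusted p = 0.00048) was the largest among the kinesins in this line. KIF3B, a motor subunit of kinesin-2, was at 47.5 and 51.0 TPM in shALKBH5 libraries, against 25.2 and 25.4 TPM in shNS libraries (log2 change 0.93, SE 0.13, adjusted p = 0.0023). KIF13B was at 20.4 and 19.9 TPM in shALKBH5 libraries, against 12.5 and 13.1 TPM in shNS libraries (log2 change 0.61, SE 0.10, adjusted p = 0.0045). Both libraries of each group lay close together for these motors, and their calls held under both other scalings. KIF1C, a vesicle carrier of the kinesin-3 family, was at 26.7 and 27.8 TPM in shALKBH5 libraries, against 19.2 and 19.6 TPM in shNS libraries (log2 change 0.47, SE 0.09, adjusted p = 0.0077). With median-of-ratios scaling its change was 0.26 (adjusted p = 0.17). Its adjusted p was 0.057 without shALKBH5 replicate 3, 0.068 without shNS replicate 1 and 0.059 without shNS replicate 3.

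Low transport kinesins gave calls that other settings ended. KIFC3 was at 2.84 and 2.26 TPM in NOMO-1 shALKBH5 libraries, against 1.09 and 1.15 TPM in shNS libraries (log2 change 0.74, SE 0.18, adjusted p = 0.02, and 0.055 with quantile normalization). KIF5C, a kinesin-1 heavy chain best known from neurons, was at 3.10 and 3.71 TPM in shALKBH5 libraries, against 2.14 and 2.04 TPM in shNS libraries (log2 change 0.51, SE 0.12, adjusted p = 0.014). With libraries rescaled by median of ratios its adjusted p was 0.056. KIF17, a homodimeric kinesin-2, was at 1.53 and 1.98 TPM in shALKBH5 libraries, against 0.96 and 0.95 TPM in shNS libraries (log2 change 0.49, SE 0.14, adjusted p = 0.029). Rescaled in the same way its adjusted p was 0.085. All 3 calls also ended without some single NOMO-1 library, with adjusted p up to 0.12 for KIFC3 (each of the 4), 0.084 for KIF5C (shALKBH5 replicate 3 or either shNS library) and 0.15 for KIF17 (each of the 4). Reads of KIFC3 can overlap 441 exonic bases of AC092118.2 on the opposite strand.

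The lower transport kinesins in NOMO-1 included the main kinesin-1. KIF5B, the ubiquitous kinesin-1 heavy chain, was at 54.8 and 61.9 TPM in shALKBH5 libraries, against 129 and 125 TPM in shNS libraries. Its log2 change was -1.11 (SE 0.27, adjusted p = 0.017), and the adjusted p lay between 0.066 and 0.1 without any 1 of the 4 NOMO-1 libraries. KIF3C, which pairs with KIF3A in kinesin-2, was at 6.09 and 6.63 TPM in shALKBH5 libraries, against 10.6 and 11.4 TPM in shNS libraries (log2 change -0.71, SE 0.14, adjusted p = 0.0076, and 0.058 without shALKBH5 replicate 2 or 0.056 without shNS replicate 3). KIF21B, a kinesin-4 that limits microtubule growth, was at 20.8 and 21.8 TPM in shALKBH5 libraries, against 31.5 and 31.2 TPM in shNS libraries (log2 change -0.53, SE 0.18, adjusted p = 0.0496). The KIF21B call sits at the threshold: it ended without any 1 NOMO-1 library or either MOLM13 shNS library, with adjusted p up to 0.19, whereas its adjusted p under median-of-ratios scaling was 0.0007. Within kinesin-2, KIF3C relative to KIF3B was at 0.128 and 0.13 in shALKBH5 libraries, against 0.421 and 0.449 in shNS libraries, a ratio inside each library that no library-wide factor changes. KIF5B made up 20.9% and 22.6% of the summed transport TPM in shALKBH5 libraries, against 44.4% and 43.3% in shNS libraries.

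The 4 transport kinesins of NOMO-1 that did not pass were KIF1B, KIF3A, KIF21A and KIFC2. KIF1B, a carrier of mitochondria and synaptic vesicle precursors, was at 26.9 and 27.9 TPM in shALKBH5 libraries, against 25.0 and 24.4 TPM in shNS libraries (log2 difference 0.14, SE 0.23, adjusted p = 0.66). KIFC2 was at 20.8 and 18.4 TPM in shALKBH5 libraries, against 15.2 and 16.0 TPM in shNS libraries (log2 difference 0.31, SE 0.10, adjusted p = 0.051). KIF3A was at 4.86 and 4.03 TPM in shALKBH5 libraries, against 3.16 and 2.92 TPM in shNS libraries (log2 difference 0.43, SE 0.16, adjusted p = 0.075). KIF21A, in turn, stood at 4.58 and 5.50 TPM in shALKBH5 libraries, against 6.35 and 6.57 TPM in shNS libraries (log2 difference -0.31, SE 0.12, adjusted p = 0.084). KIFC2, KIF3A and KIF21A missed the threshold only after adjustment, with an unadjusted limma p of 0.023, 0.037 and 0.042. Without MOLM13 shALKBH5 replicate 1 their adjusted p was 0.012 (KIFC2), 0.021 (KIF3A) and 0.041 (KIF21A), and KIFC2, KIF3A and KIF21A passed without replicate 3 of that group as well. With median-of-ratios scaling KIF21A passed (log2 change -0.48, adjusted p = 0.018).

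**Figure D3:**
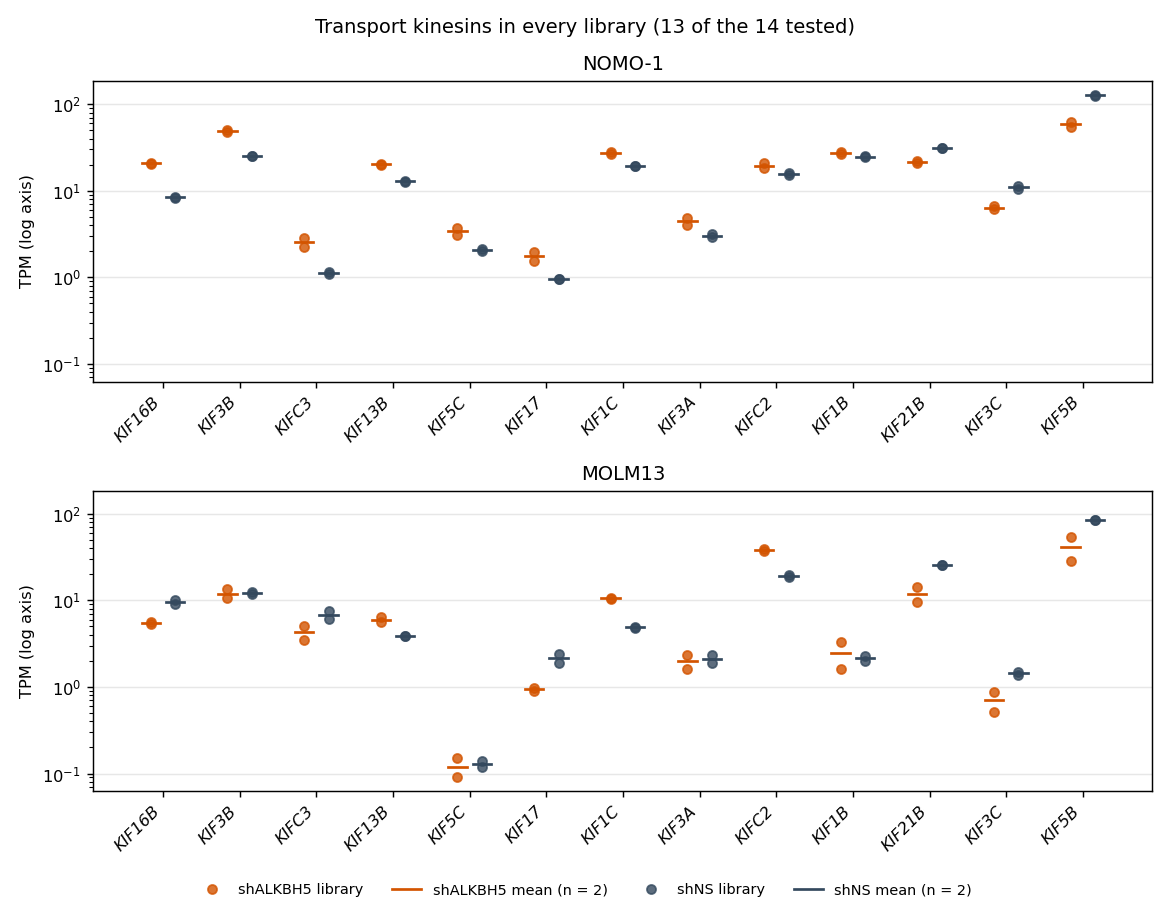
TPM of 13 of the 14 tested transport kinesins in each library on a log axis, with shALKBH5 libraries left of shNS libraries within each line (KIF21A, listed at 0 in a MOLM13 library, is left out). KIF16B is higher with shALKBH5 in NOMO-1 and lower in MOLM13, and KIF5B is lower with shALKBH5 in both.

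In MOLM13, 3 of the 14 tested transport kinesins were called higher and 5 lower, with a median log2 change of -0.04. Of all genes tested, 10.6% were called higher and 31.2% lower. With median-of-ratios factors of 0.855 and 0.656 in shALKBH5 libraries and 0.919 and 0.919 in shNS libraries, 4 were called higher and 4 lower, and the share of higher calls among all called genes was 47.8% in place of 25.3%. The 5 lower calls became 2 when MOLM13 was fitted alone, 2 without shNS replicate 1 and 3 without shNS replicate 3. The motors called higher were KIFC2, KIF1C and KIF13B. KIFC2 was at 37.5 and 39.1 TPM in shALKBH5 libraries, against 19.4 and 18.4 TPM in shNS libraries (log2 change 0.98, SE 0.10, adjusted p = 0.001). In shALKBH5 replicate 3 it was the most abundant kinesin of all. KIF1C was at 10.2 and 10.8 TPM in shALKBH5 libraries, against 4.85 and 4.88 TPM in shNS libraries (log2 change 0.97, SE 0.09, adjusted p = 0.00076). KIF13B was at 6.37 and 5.58 TPM in shALKBH5 libraries, against 3.89 and 3.89 TPM in shNS libraries (log2 change 0.51, SE 0.10, adjusted p = 0.01). The KIF13B call ended without shNS replicate 1 (adjusted p = 0.069) or shNS replicate 3 (adjusted p = 0.067). KIFC2 shares up to 791 of its 4447 exonic bases with FOXH1 on the opposite strand, so its level is uncertain.

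The 5 lower transport kinesins of MOLM13 were KIF5B, KIF21B, KIF16B, KIF17 and KIF3C. KIF5B was at 54.0 and 28.7 TPM in MOLM13 shALKBH5 libraries, against 84.5 and 85.7 TPM in shNS libraries (log2 change -1.09, SE 0.27, adjusted p = 0.02, and 0.092 or 0.093 without either shNS library). The shALKBH5 libraries differed widely from each other, with replicate 3 the lower, and both lay below the controls. KIF21B was at 14.2 and 9.45 TPM in shALKBH5 libraries, against 25.3 and 25.9 TPM in shNS libraries (log2 change -1.08, SE 0.18, adjusted p = 0.0048). KIF16B was at 5.37 and 5.58 TPM in shALKBH5 libraries, against 10.0 and 9.16 TPM in shNS libraries (log2 change -0.71, SE 0.10, adjusted p = 0.0027). With quantile normalization the KIF16B change was -0.39 (adjusted p = 0.067). KIF17 was at 0.98 and 0.90 TPM in shALKBH5 libraries, against 2.42 and 1.91 TPM in shNS libraries (log2 change -0.70, SE 0.14, adjusted p = 0.0088, and 0.067 without shNS replicate 1). KIF3C was at 0.52 and 0.88 TPM in shALKBH5 libraries, against 1.39 and 1.5 TPM in shNS libraries (log2 change -0.53, SE 0.14, adjusted p = 0.022). The KIF3C call ended with median-of-ratios scaling (adjusted p = 0.11) and without shNS replicate 1 (adjusted p = 0.093) or 3 (adjusted p = 0.12).

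6 transport kinesins did not pass in MOLM13. KIFC3 was at 5.11 and 3.52 TPM in shALKBH5 libraries, against 6.05 and 7.46 TPM in shNS libraries (log2 difference -0.56, SE 0.18, adjusted p = 0.053). KIF3B was at 13.4 and 10.5 TPM in shALKBH5 libraries, against 11.7 and 12.4 TPM in shNS libraries (log2 difference -0.02, SE 0.13, adjusted p = 0.93). For KIF3B the groups overlapped, and the sign turned with median-of-ratios scaling (0.26, adjusted p = 0.019) and with quantile normalization (0.36, adjusted p = 0.0087). KIF1B was at 3.34 and 1.60 TPM in shALKBH5 libraries, against 2.29 and 2.0 TPM in shNS libraries (log2 difference 0.10, SE 0.23, adjusted p = 0.78). Its 2 shALKBH5 libraries lay on either side of the controls, and the difference was -0.27 without shALKBH5 replicate 1 (adjusted p = 0.035) and 0.47 without shALKBH5 replicate 3 (adjusted p = 0.0057). KIF3A was at 2.34 and 1.63 TPM in shALKBH5 libraries, against 2.32 and 1.90 TPM in shNS libraries (log2 difference -0.07, SE 0.16, adjusted p = 0.78), and KIF5C and KIF21A were at most 0.15 TPM in every MOLM13 library.

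Across both lines, 3 transport kinesins were called lower in both (KIF5B, KIF3C and KIF21B), against 10.4% of all genes tested, and 2 were called higher in both (KIF1C and KIF13B), against 6.33%. KIF16B and KIF17 were called in opposite directions, which held for 4.13% of all genes. KIF17 reached 1 TPM only in NOMO-1 shALKBH5 and MOLM13 shNS libraries, so the filter favoured its opposite directions. The log2 changes of the 14 transport kinesins in the 2 lines had a Spearman correlation of 0.12 and a Pearson correlation of 0.36 across genes, as a description.

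**Figure D4:**
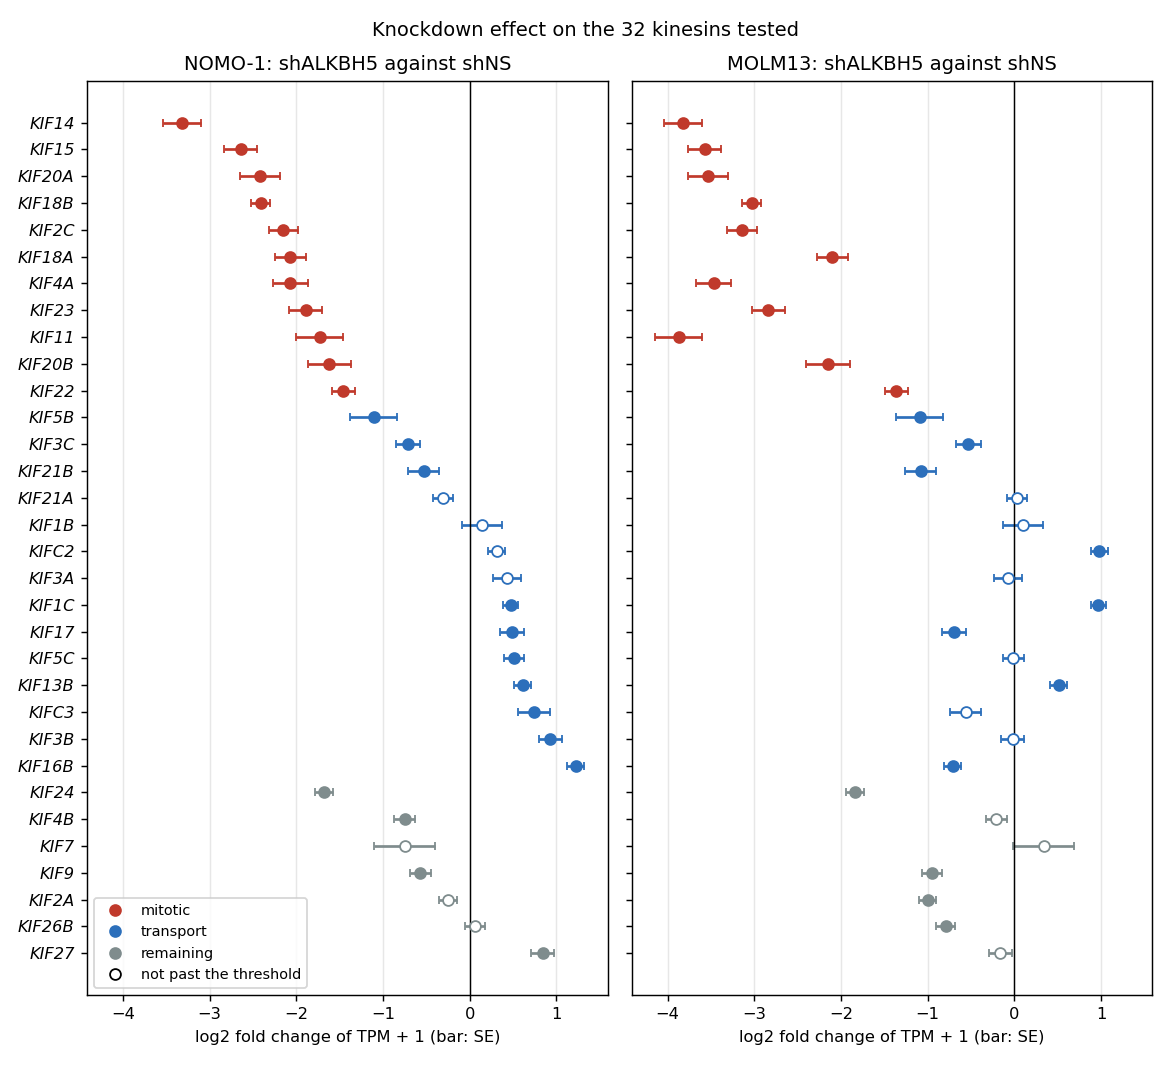
Log2 change (shALKBH5 over shNS, on log2(TPM + 1)) of each tested kinesin in NOMO-1 and MOLM13. The mitotic kinesins lie between -3.32 and -1.46 in NOMO-1 and between -3.87 and -1.36 in MOLM13, whereas transport kinesins lie on both sides of 0.

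Among the 7 tested remaining members was KIF4B, whose direction in NOMO-1 the filter fixed in advance. With it, 1 member was called higher and 3 lower in NOMO-1, where 43.6% of all genes tested were called in either direction. The count of these calls was 2 without NOMO-1 shNS replicate 1. In MOLM13 0 were called higher and 4 lower by limma, against 41.8% of all genes in either direction, and 0 were higher at an unadjusted p under 0.05. KIF24, which restrains the growth of primary cilia at centrioles, was at 2.28 and 2.39 TPM in NOMO-1 shALKBH5 libraries, against 9.40 and 9.93 TPM in NOMO-1 shNS libraries (log2 change -1.68, SE 0.10, adjusted p = 0.00032). In MOLM13 it was at 0.95 and 0.91 TPM in shALKBH5 libraries, against 5.87 and 5.95 TPM in shNS libraries (log2 change -1.84, SE 0.10, adjusted p = 0.00019). This fall was within the range of the mitotic set in both lines, and the KIF24 promoter was among the 2 of the remaining members that held the hexamer. That RefSeq window (chr9:34329219-34329518, minus strand) lies upstream of the gene as placed by GENCODE 29, which starts KIF24 at 34311371. KIF9 was at 1.81 and 1.96 TPM in NOMO-1 shALKBH5 libraries, against 3.49 and 3.11 TPM in NOMO-1 shNS libraries (log2 change -0.57, SE 0.12, adjusted p = 0.011, and 0.07 or 0.074 without shALKBH5 replicate 2 or shNS replicate 1). In MOLM13 it was at 1.92 and 1.64 TPM in shALKBH5 libraries, against 4.08 and 4.68 TPM in shNS libraries (log2 change -0.95, SE 0.12, adjusted p = 0.002). KIF9 exons overlap KIF9-AS1 on the other strand by up to 301 bases.

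KIF2A, a microtubule depolymerase related to KIF2C that acts at spindle poles and in resting cells, was the most abundant kinesin of the NOMO-1 shALKBH5 libraries. It was at 74.7 and 83.0 TPM in NOMO-1 shALKBH5 libraries, against 93.8 and 93.3 TPM in NOMO-1 shNS libraries (log2 difference -0.25, SE 0.10, adjusted p = 0.1), and it passed under median-of-ratios scaling (log2 change -0.46, adjusted p = 0.006). It also passed without either MOLM13 shALKBH5 library (adjusted p = 0.016). In MOLM13 it was at 22.0 and 19.7 TPM in shALKBH5 libraries, against 44.2 and 41.5 TPM in shNS libraries (log2 change -1.0, SE 0.10, adjusted p = 0.001). Relative to KIF2A, KIF2C was at 0.364 and 0.434 in NOMO-1 shALKBH5 libraries, against 1.51 and 1.53 in NOMO-1 shNS libraries. In MOLM13 the same ratio was 0.151 and 0.124 in shALKBH5 libraries, against 0.759 and 0.785 in shNS libraries, so that KIF2C fell further than KIF2A in both lines.

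KIF27 was at 5.31 and 5.92 TPM in NOMO-1 shALKBH5 libraries, against 2.70 and 2.67 TPM in NOMO-1 shNS libraries (log2 change 0.84, SE 0.13, adjusted p = 0.0033). In MOLM13 it was at 3.64 and 3.01 TPM in shALKBH5 libraries, against 4.13 and 3.51 TPM in shNS libraries (log2 difference -0.16, SE 0.13, adjusted p = 0.37). The MOLM13 groups overlapped. KIF26B was at 2.84 and 2.59 TPM in MOLM13 shALKBH5 libraries, against 5.12 and 5.69 TPM in MOLM13 shNS libraries (log2 change -0.79, SE 0.11, adjusted p = 0.0031), and under 1 TPM in every NOMO-1 library. KIF4B, an intronless near copy of KIF4A, was at 0.23 and 0.44 TPM in NOMO-1 shALKBH5 libraries, against 1.29 and 1.19 TPM in NOMO-1 shNS libraries (log2 change -0.75, SE 0.12, adjusted p = 0.0041). KIF4B reached 1 TPM only in those shNS libraries, so that the filter fixed this direction in advance. Its reads can be assigned to either copy, since 14% of its 50-base words occur in KIF4A, so its values are uncertain. KIF7, a regulator of Hedgehog signalling, was at 0.19 and 0.17 TPM in NOMO-1 shALKBH5 libraries, against 1.01 and 0.97 TPM in NOMO-1 shNS libraries (log2 difference -0.75, SE 0.35, adjusted p = 0.13). Its MOLM13 level was 0.04 and 1.35 TPM in shALKBH5 libraries, against 0.19 and 0.28 TPM in shNS libraries (log2 difference 0.34, SE 0.35, adjusted p = 0.47). The MOLM13 shALKBH5 libraries lay on either side of the controls, and without replicate 1 of that group the KIF7 change in MOLM13 was 0.93. KIF7 reached 1 TPM only in NOMO-1 shNS replicate 1 and MOLM13 shALKBH5 replicate 3. The value of 0.93 thus rests on a library through which KIF7 passed the filter.

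The balance within the superfamily moved with these changes. The summed TPM of all kinesins was 517 and 601 in NOMO-1 shALKBH5 libraries, against 1243 and 1255 in NOMO-1 shNS libraries, and 228 and 178 in MOLM13 shALKBH5 libraries, against 526 and 524 in MOLM13 shNS libraries. Mitotic kinesins made up 32.7% and 38.7% of that sum in NOMO-1 shALKBH5 libraries, against 67.6% and 68.1% in NOMO-1 shNS libraries. Their share was 18.6% and 16.6% in MOLM13 shALKBH5 libraries, against 54.6% and 54.7% in MOLM13 shNS libraries. These shares are ratios within a library and do not depend on a library-wide factor. The summed transport TPM was 262 and 274 in NOMO-1 shALKBH5 libraries, against 290 and 288 in NOMO-1 shNS libraries, and 154 and 119 in MOLM13 shALKBH5 libraries, against 175 and 176 in MOLM13 shNS libraries.

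**Figure D5:**
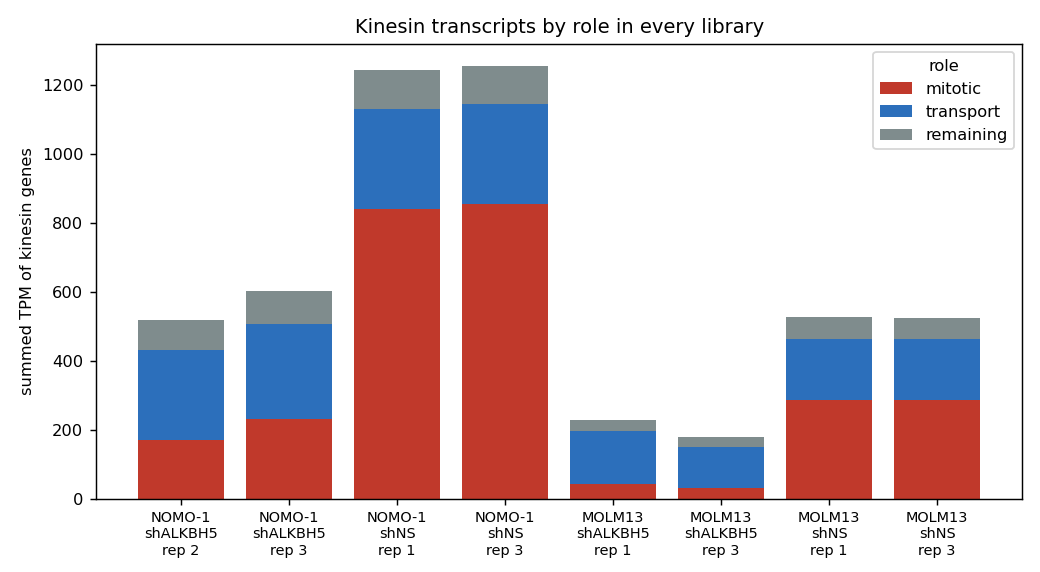
Summed TPM of the mitotic, transport and remaining kinesins in each of the 8 libraries, stacked from 0, with shALKBH5 libraries left of shNS libraries in each line. The mitotic part is 169 and 232 TPM in NOMO-1 shALKBH5 libraries against 840 and 855 TPM in NOMO-1 shNS libraries, and 42.2 and 29.6 TPM in MOLM13 shALKBH5 libraries against 287 and 286 TPM in MOLM13 shNS libraries.

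The size of the knockdown effect differed between the lines for 16 of the 32 tested kinesins by the test of the difference (NOMO-1 change minus MOLM13 change), 14 with a positive and 2 with a negative difference. Of all genes tested, 34.6% were called in this comparison, 29.7% with a positive and 4.9% with a negative difference, and the median difference of all genes was 0.42. With median-of-ratios scaling 13 kinesins were called, 9 positive and 4 negative, and the share of positive calls among all called genes was 52.0% in place of 85.8%. Among the mitotic kinesins that scaling gave 4 positive calls and 1 negative call, and quantile normalization gave 5 and 1. Without rescaling, 7 mitotic kinesins were called with a positive difference, that is, a smaller fall in NOMO-1. The largest was that of KIF11 (2.14, SE 0.38, adjusted p = 0.01), followed by KIF4A (1.40, SE 0.29, adjusted p = 0.015) and KIF20A (1.11, SE 0.32, adjusted p = 0.04). This order depended on the pseudocount: with 0.1 TPM in place of 1, the difference was 2.68 for KIF4A, 2.49 for KIF11, 2.36 for KIF18B (0.62 with 1 TPM) and 2.27 for KIF20A. For KIF14 the difference was 0.51 (adjusted p = 0.23), for KIF20B 0.53 (adjusted p = 0.28), for KIF18A 0.04 (adjusted p = 0.93) and for KIF22 -0.09 (adjusted p = 0.71, and -0.58 with adjusted p = 0.015 under median-of-ratios scaling). Among transport kinesins the difference was 1.93 for KIF16B (adjusted p = 0.0017), 1.19 for KIF17 (adjusted p = 0.0077), 1.29 for KIFC3 (adjusted p = 0.014), 0.95 for KIF3B (adjusted p = 0.012), -0.50 for KIF1C (adjusted p = 0.029) and -0.67 for KIFC2 (adjusted p = 0.017). KIF17 reached 1 TPM only in NOMO-1 shALKBH5 and MOLM13 shNS libraries. The filter thus favoured a positive difference of KIF17 under every scaling, and its call is no independent result. The calls of KIF11, KIF16B and KIF17 held without any single library and under both other scalings, whereas each of the other 13 ended without 3 to 6 of the 8 libraries taken 1 at a time, with adjusted p up to 0.13. The count was 6 without NOMO-1 shALKBH5 replicate 3, 3 and 4 without NOMO-1 shNS replicate 1 and 3, 5 and 4 without MOLM13 shNS replicate 1 and 3, and 26 without MOLM13 shALKBH5 replicate 1.

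The control libraries of the lines already differed in kinesin levels. Between NOMO-1 shNS and MOLM13 shNS libraries, 20 of the 32 tested kinesins were called higher and 4 lower in NOMO-1, against 40.6% and 19.2% of all genes tested, 59.8% together. With median-of-ratios scaling 19 were higher and 7 lower, and the share of higher calls among all called genes was 52.2% in place of 67.9%. These counts include KIF21A, KIF5C and KIF4B, which reached 1 TPM only in NOMO-1 libraries. They also include KIF26B, which reached it only in MOLM13 libraries. The filter fixed the direction of these genes in advance. 10 of 11 mitotic kinesins were higher in NOMO-1, with a median log2 difference of 1.69 over the set and of 0.29 over all genes. KIF4A (92.2 and 91.7 TPM in NOMO-1 shNS, 15.0 and 15.0 TPM in MOLM13 shNS) had the largest difference of the set (2.54, SE 0.20, adjusted p = 9.5e-05). KIF20B, the exception, had a difference of 0.27 (SE 0.25, adjusted p = 0.38). The KIF11 call (0.84, SE 0.27, adjusted p = 0.034) ended with median-of-ratios scaling (0.54, adjusted p = 0.052) and with quantile normalization (0.49, adjusted p = 0.08). Of the transport kinesins, 7 were higher in NOMO-1 shNS libraries, and 2 were lower, KIFC3 (-1.87, SE 0.18, adjusted p = 0.00024) and KIF17 (-0.69, SE 0.14, adjusted p = 0.0051). On the log2(TPM + 1) scale KIF1B led the higher ones (25.0 and 24.4 TPM in NOMO-1 shNS, 2.29 and 2.0 TPM in MOLM13 shNS). By group means KIF21A (323 times) and KIF5C (16.1 times), both far under 1 TPM in MOLM13 shNS libraries, came before KIF1B (11.5 times). KIF21A was at 6.35 and 6.57 TPM in NOMO-1 shNS libraries and at 0.01 and 0.03 TPM in MOLM13 shNS libraries. The most abundant kinesin was KIF2C in NOMO-1 shNS libraries and KIF5B in MOLM13 shNS libraries. Line and any difference in culture or handling between the lines cannot be told apart here.

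Partners of the mitotic motors moved with them. Of 20 spindle and cytokinesis partners, 1 was called higher and 18 lower in NOMO-1 (median log2 change -1.67), and 0 higher (also 0 at an unadjusted limma p under 0.05) and 17 lower in MOLM13 (median -2.18). Over all genes tested, 28.6% were called higher and 15.0% lower in NOMO-1, and 10.6% higher and 31.2% lower in MOLM13. TPX2, which targets the kinase AURKA and KIF15 to spindle microtubules, was at 107 and 148 TPM in NOMO-1 shALKBH5 libraries, against 550 and 572 TPM in NOMO-1 shNS libraries (log2 change -2.15, SE 0.18, adjusted p = 0.00054). In MOLM13 it was at 7.49 and 5.69 TPM in shALKBH5 libraries, against 82.4 and 82.2 TPM in shNS libraries (log2 change -3.47, SE 0.18, adjusted p = 0.00018). CENPE, the kinesin-7 of kinetochores that bears another name and so stands outside the 41 members, was at 7.34 and 10.9 TPM in NOMO-1 shALKBH5 libraries, against 35.8 and 37.1 TPM in NOMO-1 shNS libraries (log2 change -1.91, SE 0.19, adjusted p = 0.00081). In MOLM13 its level was 1.18 and 0.81 TPM in shALKBH5 libraries, against 15.1 and 14.3 TPM in shNS libraries (log2 change -2.98, SE 0.19, adjusted p = 0.00025).

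Light chains and adaptors of the transport motors were called higher for 12 and lower for 0 of 17 tested in NOMO-1 (median log2 change 0.70), and higher for 5 and lower for 3 in MOLM13 (median -0.02). Beside these stand 28.6% of all genes tested called higher and 15.0% lower in NOMO-1, and 10.6% and 31.2% in MOLM13. At an unadjusted limma p under 0.05, 1 was lower in NOMO-1. With median-of-ratios scaling 12 were higher and 3 lower in NOMO-1 (median 0.49), and 11 higher and 3 lower in MOLM13 (median 0.26). KLC4, a kinesin-1 light chain, was at 23.3 and 22.2 TPM in NOMO-1 shALKBH5 libraries, against 8.14 and 8.86 TPM in NOMO-1 shNS libraries (log2 change 1.32, SE 0.14, adjusted p = 0.00093). KLC2, another light chain, was at 29.02 and 29.15 TPM in NOMO-1 shALKBH5 libraries, against 12.4 and 12.7 TPM in NOMO-1 shNS libraries (log2 change 1.15, SE 0.13, adjusted p = 0.0012). In MOLM13, KLC4 was at 6.44 and 6.44 TPM in shALKBH5 libraries, against 4.43 and 5.90 TPM in shNS libraries (log2 difference 0.28, SE 0.14, adjusted p = 0.15), and KLC2 was at 3.19 and 3.97 TPM in shALKBH5 libraries, against 1.63 and 2.10 TPM in shNS libraries (log2 change 0.68, SE 0.13, adjusted p = 0.0092). KIFAP3, the accessory subunit of kinesin-2, was at 26.9 and 27.1 TPM in NOMO-1 shALKBH5 libraries, against 17.0 and 16.2 TPM in NOMO-1 shNS libraries (log2 change 0.67, SE 0.18, adjusted p = 0.027). In MOLM13 it was at 8.34 and 5.33 TPM in shALKBH5 libraries, against 11.0 and 10.5 TPM in shNS libraries (log2 change -0.61, SE 0.18, adjusted p = 0.037).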

How the data were processed

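The members and gene lists were chosen with earlier results of these data known. The authors deposited 1 table of TPM for all 8 libraries; that it holds TPM follows from its values, each column adding up to 1000000 after rounding. STAR and RSEM on GRCh38 made it, per the submitters' processing notes. Tool versions, annotation and the strand option of the counting: not given in the sources used here. Table columns were matched to the labels by line and replicate number: the column letter E is not in the labels, and shALKBH5 is the only hairpin besides shNS. From the deposited TPM, log2(TPM + 1) was computed and fitted in limma 3.58.1 (R 4.3.3) with 1 mean per group over all 8 libraries, 4 residual and 2.29 prior degrees of freedom, an intensity trend and Benjamini-Hochberg adjustment over the 14302 genes that reached 1 TPM in 2 or more libraries. The script was tested on simulated data. Every kinesin could be named, in full from a group mean of 5 TPM or a call; of other lists, the 3 members with the smallest p per knockdown comparison and members that define the list. Same-numbered replicates did not deviate together (correlation 0.0606 between the MOLM13 groups), so numbers were not used to pair samples. Gene positions and exon overlaps are from GENCODE 29, promoters from RefSeq (GRCh38.p14). The threshold was 0.05. Alternatives covered pseudocount, filters, scaling, trend, each line alone, a replicate block and each library left out.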

Additional observations from a re-analysis of the deposited data

Results flagged for a closer look

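The effect of knockdown differed between the lines, by limma's interaction test, for 16 of the 32 tested kinesins, against 34.6% of all genes tested. On the log2(TPM + 1) scale the NOMO-1 change minus the MOLM13 change was 2.14 for KIF11, 0.93 for KIF15, 1.93 for KIF16B, 1.19 for KIF17, 0.62 for KIF18B, -0.50 for KIF1C, 1.11 for KIF20A, 0.95 for KIF23, 0.85 for KIF26B, 1.00 for KIF27, 0.76 for KIF2A, 0.99 for KIF2C, 0.95 for KIF3B, 1.40 for KIF4A, -0.67 for KIFC2 and 1.29 for KIFC3. Over all genes tested the median difference was 0.42, with 29.7% called positive and 4.9% called negative. Most of the 16 kinesin calls depended on single libraries, as given above. KIF16B and KIF17 were higher with shALKBH5 in both NOMO-1 libraries and lower in both MOLM13 libraries, although the NOMO-1 call of KIF17 ended with median-of-ratios scaling (0.33, adjusted p = 0.085). For KIF17 the filter favoured this pattern, since KIF17 reached 1 TPM only in NOMO-1 shALKBH5 and MOLM13 shNS libraries. In MOLM13 several mitotic kinesins were under 1 TPM with shALKBH5, where the scale compresses their fall.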

How the results depend on the processing

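All 11 mitotic kinesins were called lower in both lines under every alternative run except the fit with the replicate block over all libraries, which gave 9 in NOMO-1 (KIF11 and KIF20B lost). Replicate numbers were not used as pairs in the main fit, given the correlation of 0.0606 between the MOLM13 groups. That value does not show that same-numbered replicates were handled apart. The block also gave 2 higher and 0 lower transport kinesins and 2 calls among remaining members in NOMO-1, and 0 differences between the lines (17 with an unadjusted limma p under 0.05). Higher transport kinesins in NOMO-1 numbered 4 with median-of-ratios scaling and 3 with quantile normalization. Lower ones in MOLM13 numbered 2 with the line fitted alone. Calls among remaining members in NOMO-1 numbered 2 with a filter at 5 TPM. With each library left out in turn, higher transport kinesins ranged from 3 to 9 and lower ones from 0 to 4 in NOMO-1, from 2 to 4 and from 2 to 7 in MOLM13, calls among remaining members in NOMO-1 from 2 to 6, and differences from 3 to 26. Signs turned for KIF1B in MOLM13 when 1 shALKBH5 library was left out (from -0.27 without replicate 1 to 0.47 without replicate 3), for KIF3B in MOLM13 with median-of-ratios (0.26) and quantile normalization (0.36), and for the KIF5B difference when 1 MOLM13 shALKBH5 library was left out (0.43 without replicate 1, -0.46 without replicate 3); the cause was not tested. TPM hold no depth, so counting error is unknown.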

Other observations

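Dynein and dynactin, the minus-end motor and its activator, did not share 1 direction: 9 of 19 tested genes were called higher and 3 lower in NOMO-1 (median log2 change 0.38), and 3 higher and 6 lower in MOLM13 (median -0.26). Over all genes tested 28.6% were called higher and 15.0% lower in NOMO-1, and 10.6% higher and 31.2% lower in MOLM13, so the lower shares of dynein and dynactin lay near those of all genes. With median-of-ratios scaling the counts were 8 and 5 in NOMO-1 (median 0.16) and 6 and 4 in MOLM13 (median 0.03). DCTN6 was at 32.7 and 35.6 TPM in NOMO-1 shALKBH5 libraries, against 77.9 and 72.7 TPM in NOMO-1 shNS libraries, and at 21.9 and 14.7 TPM in MOLM13 shALKBH5 libraries, against 69.2 and 68.5 TPM in MOLM13 shNS libraries. DCTN6 is a single example and went against most calls of its list in NOMO-1, where 9 were higher and 3 lower. Of 15 tested tubulins, 1 was called higher and 5 lower in NOMO-1, and 0 higher (also 0 at an unadjusted limma p under 0.05) and 5 lower in MOLM13; with median-of-ratios scaling 1 and 6 were called in NOMO-1 and 2 and 5 in MOLM13. The share of tubulins called lower in MOLM13 also lay near that of all genes. TUBA1B, the most abundant of them, was at 800 and 1002 TPM in NOMO-1 shALKBH5 libraries, against 2918 and 3037 TPM in NOMO-1 shNS libraries, and at 480 and 331 TPM in MOLM13 shALKBH5 libraries, against 1197 and 1271 TPM in MOLM13 shNS libraries. Tubulin genes have near-identical copies, so reads can be assigned to the wrong copy.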
